A study of Mus musculus with 8 samples.

Results

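A set of 10 genes of cholesterol and lipid handling was followed in microglia of ethanol-treated and saline-treated 5xFAD mice. The members were Apoe, Lpl, Abca1, Abcg1, Nr1h2, Nr1h3, Mylip, Soat1, Ch25h and Plin2. They are called export genes below, although Soat1 and Plin2 serve storage, Lpl splits triglycerides and Mylip marks lipoprotein receptors for breakdown. The 10 genes were taken by gene symbol from the deposited expression table, and all 10 of 10 were among its 56832 rows. RNA-seq libraries were made from brain microglia isolated by fluorescence-activated cell sorting from young adult male mice. Every animal carried the 5xFAD transgenes, which make mutant human amyloid precursor protein and presenilin 1 from the neuronal Thy1 promoter, so that amyloid plaques form in the brain. Both groups were injected intraperitoneally on 5 days of each week for 4 weeks and then left for 2 weeks without injections. The ethanol group received 3 g/kg ethanol as a 20% solution (4 libraries), and the control group received saline (4 libraries). Mice without the transgenes were not analysed here, so the comparison is of ethanol with saline on the 5xFAD background. The titles do not say that each library came from its own mouse, and every p-value therefore measures the spread between these libraries, which may be technical.

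Microglia take up lipoproteins, myelin debris and dying cells, and cannot break down the sterol ring of the cholesterol they gather. Cholesterol leaving the lysosome can be esterified and stored in lipid droplets, or turned into oxysterols that activate the liver X receptors (LXR). The receptors, bound as dimers with retinoid X receptors, switch on the transporters and the apolipoprotein that carry cholesterol out of the cell, and a ligase that removes lipoprotein receptors from its surface. Apoe and Lpl are also known as genes of the disease-associated state that microglia take on at plaques.

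The LXR dimer is known to bind a core element repeated in the same direction with 4 bases between the copies, written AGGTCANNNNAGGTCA. The table of RefSeq promoters (mouse build GRCm38.p6, 250 bases before to 50 after each gene's start) held 8 of the 10 genes in 11 windows. Lpl and Abcg1 were not matched. The motif was searched on both strands with up to 3 mismatches in its 12 fixed letters, and 1 of the 8 genes, Abca1, held a match. Its upstream bases are shown because no other of the 8 genes held a match. The window lies at chr4:53159896-53160145 on the minus strand, and capitals mark the match, which begins at -67 and ends at -52 from the start site.
Abca1: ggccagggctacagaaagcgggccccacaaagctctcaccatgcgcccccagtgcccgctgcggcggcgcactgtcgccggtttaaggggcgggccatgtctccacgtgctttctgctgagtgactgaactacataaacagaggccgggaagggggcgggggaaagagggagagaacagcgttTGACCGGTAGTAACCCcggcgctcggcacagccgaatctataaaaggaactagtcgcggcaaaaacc
On the opposite strand the match reads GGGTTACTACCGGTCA, with 3 mismatches. Matches of this quality were present in 21.9% of the 32851 RefSeq windows, so the number of mismatches alone does not set Abca1 apart. A count of mismatches cannot tell whether the receptors bind there. With at most 2 mismatches 3.02% of windows held the motif, and no window of the 8 genes did. Bases outside the windows were not searched. A single copy of the core element, AGGTCA, was present in 16.3% of windows and in 1 of the 8 genes, Plin2. It is shown for that reason, in capitals, from chr4:86670060-86670309 on the minus strand, with the element on the opposite strand from -218 to -213.
Plin2: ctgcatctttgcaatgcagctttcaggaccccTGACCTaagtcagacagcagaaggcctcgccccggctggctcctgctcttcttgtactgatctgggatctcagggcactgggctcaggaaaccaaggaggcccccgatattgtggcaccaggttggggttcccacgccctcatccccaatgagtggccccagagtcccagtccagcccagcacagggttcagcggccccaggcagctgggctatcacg
These matches are letters in the RefSeq sequence and were not set against any binding data.

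Between 14271351 and 17231301 reads were assigned to genes per library, and the 14428 genes averaging 10 normalized counts or more entered the test. Microglial markers such as P2ry12 and Tmem119 made up 4.77 to 5.05% of all normalized counts in saline and 5.02 to 5.23% in ethanol libraries (10 of 10 markers above the minimum). The 10 lymphocyte markers summed to 0.0472 to 0.0550% in saline and 0.0467 to 0.0531% in ethanol libraries. The only one above the minimum was Ighm, at a mean of 7945 normalized counts, while Cd3e, Cd3d and Ms4a1 were among 4 listed at 0 in every library. The 10 endothelial and mural markers summed to 0.0036 to 0.0042% and 0.0037 to 0.0045%, with 3 above the minimum, led by Pecam1 at 449 and Kdr at 149, and 3 (Ly6c1, Rgs5 and Vtn) at 0 throughout. Neutrophil markers summed to 0.0178 to 0.0963% in saline and 0.0167 to 0.0700% in ethanol libraries, with 10 of 10 above the minimum. They were highest in saline 1, and Ngp at a mean of 2370 and S100a8 at 1732 led the sum. The 9 monocyte markers summed to 0.0026 to 0.0073% and 0.0024 to 0.0067%, with 8 above the minimum. None of 10 marker lists passed an adjusted p of 0.05 between the groups (two-sided exact permutation tests). In the first principal component of all tested genes, which held 20.1% of the variance, ethanol 4 stood at 60.7 and the other libraries between -31.4 and 14.2. In the second, with 16.9%, saline 4 stood at -53.1 and the others between -26.3 and 30.9. Results for the export genes are therefore also given without these libraries where they moved.

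None of the 10 genes passed the test between ethanol and saline. In limma, 0 of 10 had a Benjamini-Hochberg adjusted p under 0.05 over all 14428 genes, where the share of all genes called was 0%. The adjusted p of every member was 0.997, which was also the smallest over all genes. No member had groups that did not overlap, against 2.32% of all genes (335 genes). No member had a 95% interval of the fold that excluded 1, against 3.63% of all genes (524 genes, an unadjusted p under 0.05). Fold changes were below 1 for 9 members and above 1 for Mylip alone. Over all 14428 tested genes, 7382 had a fold below 1 and 7046 above. The signs of Abca1, Abcg1, Nr1h2, Mylip and Plin2, all close to 0 on the log2 scale, turned in at least 1 of the other settings tried. The median over the 10 members was -0.10 on the log2(value + 1) scale, beside -0.01 over all tested genes. For 6 of 10 members (Abca1, Abcg1, Nr1h2, Mylip, Soat1 and Plin2) the interval lay within a 1.5-fold change either way, so changes beyond that size were outside the interval. The intervals of Apoe and Lpl reached down to 0.639, and those of Nr1h3 and Ch25h were wider.

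**Figure D1:**
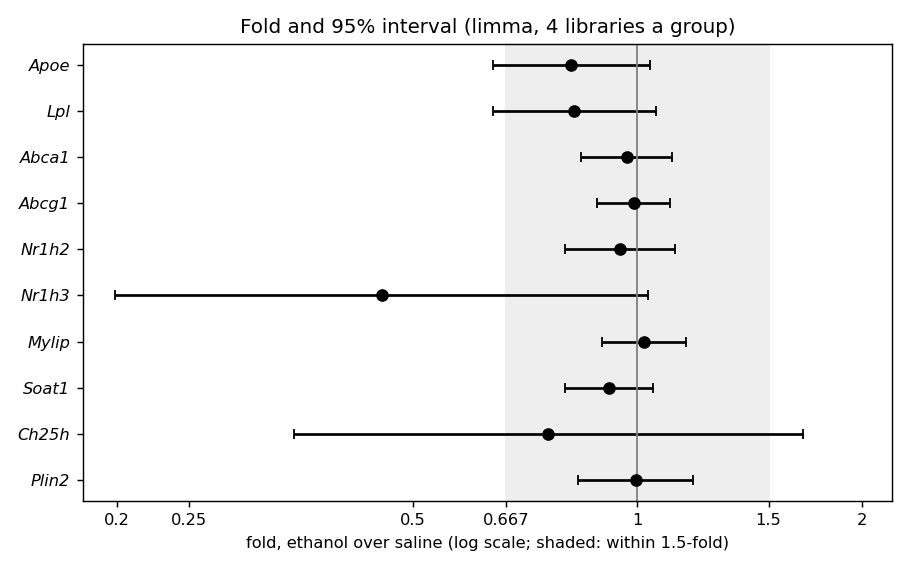
Fold of ethanol over saline for each of the 10 lipid export genes on a log axis, with points for the limma estimate and bars for its 95% interval (4 libraries a group). Shading marks changes within 1.5-fold, and every interval includes 1.

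Per kilobase of exon, Apoe was the most abundant of the 10 transcripts, and the receptor gene Nr1h3 the least. Over the 8 libraries, the level in normalized counts per kilobase was 4522 ± 1252 for Apoe and 1313 ± 122 for Mylip (SD, n = 8 in this and the other levels per kilobase). It was 630 ± 81.1 for Nr1h2, 550 ± 58.5 for Abca1 and 446 ± 24.5 for Abcg1. Plin2 had 365 ± 39.4, Soat1 345 ± 35.1 and Lpl 113 ± 23.8. Ch25h had 13.3 ± 5.49 and Nr1h3 8.996 ± 4.83. Ranges did not overlap between Apoe and Mylip, Mylip and Nr1h2, Soat1 and Lpl, or Lpl and Ch25h. The other neighbours in this order overlapped, and Plin2 was above Soat1 in only 3 of 8 libraries. Among all tested genes with a length, Apoe stood at percentile 99.0 per kilobase, Abca1 at 85.2, Lpl at 50.6 and Nr1h3 at 9.97.

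Apoe encodes apolipoprotein E, the main lipid carrier of the brain and a protein that accepts cholesterol from the cell. Saline libraries 1 to 4 had 7353, 13032, 8876 and 7481 normalized counts of Apoe. Ethanol libraries 1 to 4 had 5727, 6447, 9845 and 7725. Saline 2 was the highest of all 8, ethanol 3 the next, and the groups overlapped broadly. The means were 9185 ± 2655 for saline and 7436 ± 1806 for ethanol (SD, n = 4 each), and the fold was 0.815 (95% limits 0.639 and 1.04; two-sided exact permutation p = 0.343). Without saline 2 the fold was 0.925.

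**Figure D2:**
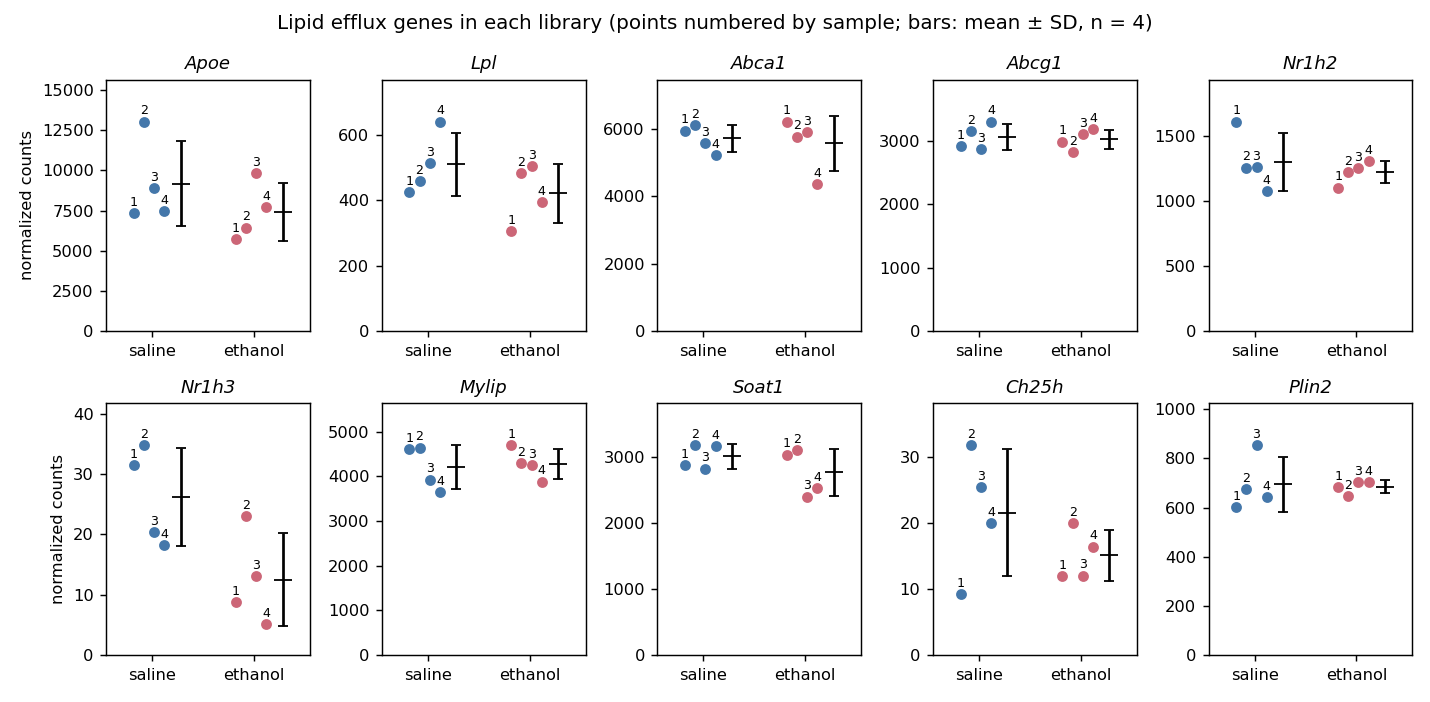
Normalized counts of the 10 genes in each library, as points numbered by sample within saline (blue) and ethanol (red), with bars for the mean ± SD (n = 4 each). Apoe in saline 2, at 13032, stands above the other 7 libraries, and in each panel the groups overlap.

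Lpl encodes lipoprotein lipase, which splits triglycerides of lipoproteins and is made by microglia themselves. Its normalized counts were 424, 458, 515 and 640 in saline and 306, 482, 504 and 394 in ethanol libraries. Ethanol 1 was the lowest and saline 4 the highest, with the remaining libraries intermixed. The means were 510 ± 94.9 and 422 ± 90.5 (SD, n = 4 each), and the fold was 0.823 (0.639 to 1.06; exact permutation p = 0.257). Without saline 4 the fold was 0.892. Lpl is secreted and needs partners that fold, anchor or inhibit it. Of 18 genes in that list 10 were tested and 0 passed, with 4 positive and 6 negative fold changes and a median of -0.06. Lmf2, a homologue of the lipase maturation factor Lmf1, had an average of 1072 ± 95.5 in saline libraries and 1262 ± 103 in ethanol libraries (SD, n = 4 each). Its groups did not overlap, and its fold was 1.18 (1.02 to 1.36; limma adjusted p = 0.997). The inhibitor gene Angptl4 was below the minimum, with a mean of 1.80, and 4 genes of the list (Gpihbp1, which anchors the lipase on capillaries, and Apoc2, Apoc3 and Sdc1) were listed at 0 in all libraries.

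The transporters that move cholesterol out of the cell, Abca1 and Abcg1, had folds closest to 1 among the abundant members together with Plin2 and Mylip. Abca1 passes cholesterol and phospholipid to lipid-poor apolipoproteins. Its normalized counts were 5948, 6114, 5578 and 5217 in saline and 6212, 5769, 5905 and 4371 in ethanol libraries. Ethanol 4 was the lowest, and the other 7 lay between 5217 and 6212. The means were 5714 ± 400 and 5564 ± 817 (SD, n = 4 each), and the fold was 0.967 (0.839 to 1.11; exact permutation p = 0.800), and without ethanol 4 the fold was 1.04. Abcg1, which exports cholesterol to particles that already carry lipid, had 2921, 3155, 2876 and 3306 normalized counts in saline and 2990, 2828, 3105 and 3183 in ethanol. All 8 values lay within a 1.17-fold range. The fold of Abcg1 was 0.988 (0.884 to 1.11; exact permutation p = 0.800). Within a library, Abca1 had on average 1.86 times the normalized counts of Abcg1, not corrected for length. The log2 ratio was 0.90 ± 0.164 for saline and 0.87 ± 0.278 for ethanol (SD, n = 4 each; difference -0.03, two-sided exact permutation p = 0.857, also after adjustment over 3 ratios).

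Of the receptors that drive this programme, Nr1h2 was the abundant one in every library and Nr1h3 the scarce one. Nr1h2 encodes LXR beta, the widely expressed form. It had 1613, 1258, 1262 and 1077 normalized counts in saline and 1105, 1225, 1254 and 1309 in ethanol libraries. Saline held both the highest and the lowest value. The fold was 0.947 (0.800 to 1.12; exact permutation p = 0.629). Nr1h3 encodes LXR alpha, the form prominent in macrophages of other tissues. Its normalized counts were 31.4, 34.7, 20.4 and 18.2 in saline and 8.69, 23.1, 13.04 and 5.14 in ethanol libraries. Ethanol 1, 3 and 4 were below every saline library, and ethanol 2 was above saline 3 and 4. The means were 26.2 ± 8.14 and 12.5 ± 7.75 (SD, n = 4 each), and the fold was 0.454, with 95% limits of 0.199 and 1.03 (two-sided exact permutation p = 0.0857; limma adjusted p = 0.997). The depth behind this gene was 5 to 36 reads. The 5 reads of ethanol 4 allow 1.67 to 12.01 normalized counts and the 36 reads of saline 2 allow 24.3 to 48.1 (exact Poisson 95% intervals, for counting error only). Without ethanol 4 the fold was 0.565, and without saline 2 it was 0.503. The ratio of Nr1h3 to Nr1h2 averaged 0.0159, not corrected for length. On the log2 scale that ratio was -5.62 ± 0.336 for saline and -6.68 ± 0.855 for ethanol (SD, n = 4 each). The difference of -1.06 had an exact permutation p of 0.0857, and of 0.257 after adjustment over 3 ratios.

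The receptors act with partners, and none of these passed the test either. All 16 genes of the list of retinoid X receptors, coactivators and corepressors were tested, with 6 positive and 10 negative fold changes and a median of -0.04. Rxra, the partner receptor gene, averaged 1831 ± 206 in saline libraries and 1684 ± 247 in ethanol libraries (SD, n = 4 each; fold 0.917). Med1, a Mediator subunit, had the most negative statistic of the list at a fold of 0.863 (0.743 to 1.00), and the coactivator gene Ncoa1 the most positive at 1.14.

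Mylip encodes the ubiquitin ligase also called IDOL, which marks lipoprotein receptors for breakdown when LXR is active. Its normalized counts were 4616, 4645, 3930 and 3650 in saline and 4695, 4296, 4252 and 3883 in ethanol libraries. Saline 3 and 4 and ethanol 4 were low, and the remaining 5 libraries ran from 4252 to 4695. The means were 4210 ± 499 and 4282 ± 332 (SD, n = 4 each), and the fold was 1.02 (0.896 to 1.16; exact permutation p = 0.800), and 0.974 without saline 4. Lrp1, a main receptor for apolipoprotein E, had a mean of 10877 in saline and 10638 in ethanol (fold 0.977), and Trem2, a lipid-sensing receptor, 23637 and 22548 (fold 0.953). Scarb1, a receptor for high-density lipoprotein, had a fold of 0.980, and Sort1, the sorting receptor sortilin, 1.06. Of 18 genes for lipoprotein receptors and uptake 15 were tested and 0 passed (5 positive, 10 negative, median log2 fold change -0.03).

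Inside the cell, cholesterol is either handed on from the lysosome or stored as ester, and no gene of either route passed the test. Soat1 esterifies cholesterol for storage. It had 2877, 3177, 2825 and 3165 normalized counts in saline and 3035, 3109, 2400 and 2525 in ethanol libraries. Ethanol 3 and 4 were below every saline library, and ethanol 1 and 2 were among them. The fold was 0.915 (0.798 to 1.05; exact permutation p = 0.286). Plin2, which coats lipid droplets, had 603, 676, 853 and 644 in saline and 682, 648, 703 and 704 in ethanol. Saline 3 was the highest and the ethanol values lay inside the saline range. The means were 694 ± 110 and 684 ± 26.3 (SD, n = 4 each), and the fold was 0.994 (0.832 to 1.19; exact permutation p = 1.0). The log2 ratio of Soat1 to Abca1, which sets storage beside export, was -0.92 ± 0.142 for saline and -1.004 ± 0.220 for ethanol (SD, n = 4 each; difference -0.08, exact permutation p = 0.600, 0.857 after adjustment over 3 ratios).

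In the list of cholesterol esters and lipid droplets 22 of 31 genes were tested and 0 passed, with 14 positive and 8 negative fold changes and a median of 0.06. Plin3, another droplet coat gene, had a mean of 205 normalized counts in saline and 248 in ethanol (fold 1.20). Fitm2, needed for droplet budding, had 207 and 161 (fold 0.770, 0.571 to 1.04). Dgat1, which makes triglyceride, had a fold of 1.06. Lysosomal and intracellular cholesterol transport had 18 of 21 genes tested and 0 past the threshold (6 positive, 12 negative, median -0.04). Npc1 and Npc2, which pass cholesterol out of the lysosome, had folds of 1.02 and 0.968, and Lipa, the acid lipase that frees it from esters, 0.989. Nceh1, an ester hydrolase of macrophages, had the most negative statistic of that list, at a fold of 0.762 (0.504 to 1.15), and Osbpl1a, an oxysterol-binding protein gene, the most positive at 1.08.

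Ch25h makes 25-hydroxycholesterol, an oxysterol that immune cells release and that holds back sterol synthesis. Its normalized counts were 9.25, 31.8, 25.5 and 20.0 in saline and 11.9, 20.1, 12.03 and 16.5 in ethanol libraries, from 10 to 33 reads. Saline 1 was the lowest of all and the 4 ethanol libraries lay inside the saline range. The means were 21.6 ± 9.58 and 15.1 ± 3.90 (SD, n = 4 each), and the fold was 0.759 (0.345 to 1.67; exact permutation p = 0.429). The interval of Ch25h held changes of 1.5-fold in either direction, so a change of that size was not excluded. Without saline 2 the fold was 0.884, and without saline 1 it was 0.599. The oxysterol list, which holds Ch25h too, had 7 of 12 genes tested, 0 past the threshold, 6 positive and 1 negative (median 0.10). Insig2, which retains the sterol sensor in the endoplasmic reticulum, had 1141 ± 94.0 and 1294 ± 83.0 normalized counts (SD, n = 4 each), with groups that did not overlap and a fold of 1.14 (0.985 to 1.31). Cyp27a1, which makes 27-hydroxycholesterol, had a fold of 1.07, and the oxysterol receptor gene Gpr183 1.05. Insig1, which the list of SREBP2 and its target genes also holds, had 1.07.

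Other genes known as LXR targets had no member past the threshold among 17 tested of 25, with 12 positive and 5 negative fold changes and a median of 0.08 on the log2 scale. Srebf1, the regulator of fatty acid synthesis, had a mean of 634 in saline and 715 in ethanol (fold 1.14, 0.922 to 1.41). Lpcat3, which remodels phospholipids, had a fold of 1.08 (0.976 to 1.20), Scd2, a fatty acid desaturase gene, 1.07, and Abca7, a lipid transporter gene, 1.03. Mertk, an engulfment receptor gene, had 0.973, and Elovl5, a fatty acid elongase gene, 0.946. Pltp, the phospholipid transfer protein gene, had 38.3 ± 35.3 and 19.9 ± 11.6 normalized counts (SD, n = 4 each). Saline 2 held 90.7 of it, while the other saline libraries had 15.4 to 27.5. The fold of Pltp was 0.605 (0.254 to 1.45) and, without saline 2, 0.873. The apolipoprotein gene Apoc1 was below the minimum, with a mean of 3.45.

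Genes of sterol synthesis under SREBP2, the regulator that is held back when sterols are plentiful, had 15 positive and 7 negative fold changes among 22 tested of 24, with a median of 0.11 and 0 past the threshold. Lss, which closes the sterol ring, had 173, 163, 170 and 117 normalized counts in saline and 189, 205, 308 and 264 in ethanol libraries. Every ethanol value was above every saline value. The fold of Lss was 1.53 (1.13 to 2.08; exact permutation p = 0.0286, the smallest that 4 against 4 libraries can give; limma adjusted p = 0.997). Sqle, the enzyme gene just before it in the pathway, had means of 51.4 and 88.3 and a fold of 1.70 (1.11 to 2.58), also without overlap, and is named here because of that. Srebf2, which encodes the regulator, had a fold of 1.04, while Pmvk, a kinase gene of the same pathway, had 0.891. Over all 8 pathway lists, 121 of 156 genes were tested and 0 passed. Groups did not overlap for 4 of the 121 (Lmf2, Insig2, Lss and Sqle), beside 2.32% of all genes.

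**Figure D3:**
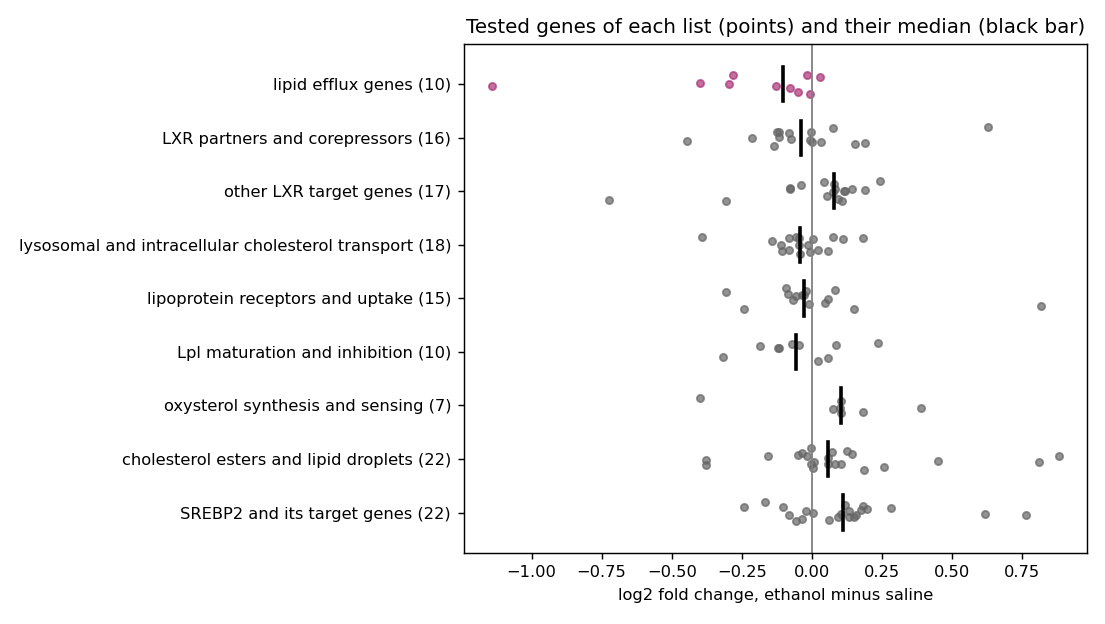
Log2 fold changes of the tested genes of each list (points, spread vertically to be visible) with the median as a black bar, and the number of tested genes in brackets. Medians run from -0.10 for the 10 export genes to 0.11 for SREBP2 and its targets, and no point passed the adjusted test.

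Apoe varied more between libraries of one group than nearly all genes of its level. Its within-group SD was 0.363 on the log2(value + 1) scale, while the median of 490 genes of like level was 0.0927, which put it at percentile 99.2. The spread did not rest on saline 2 alone, since without that library the SD was 0.280 and the percentile 98.6. The coefficient of variation was 28.9% in saline and 24.3% in ethanol, and the highest library had 2.28 times the lowest. Abca1, with an SD of 0.177, was at percentile 89.9 of 843 genes, but without ethanol 4 its SD was 0.0863 and its percentile 37.2. Lpl was at percentile 86.0 of 4421 genes, and at 65.8 without ethanol 1. Abcg1, with an SD of 0.0850, was at percentile 20 of 1865. The low genes Nr1h3 and Ch25h, with SDs of 0.667 and 0.570, were at percentiles 34.6 and 22.1 of their levels, and Ch25h had an SD of 0.335 and percentile 4.38 without saline 1. Nr1h2 had an SD of 0.185 and 0.115 without saline 1, and Plin2 0.159 and 0.0678 without saline 3.

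**Figure D4:**
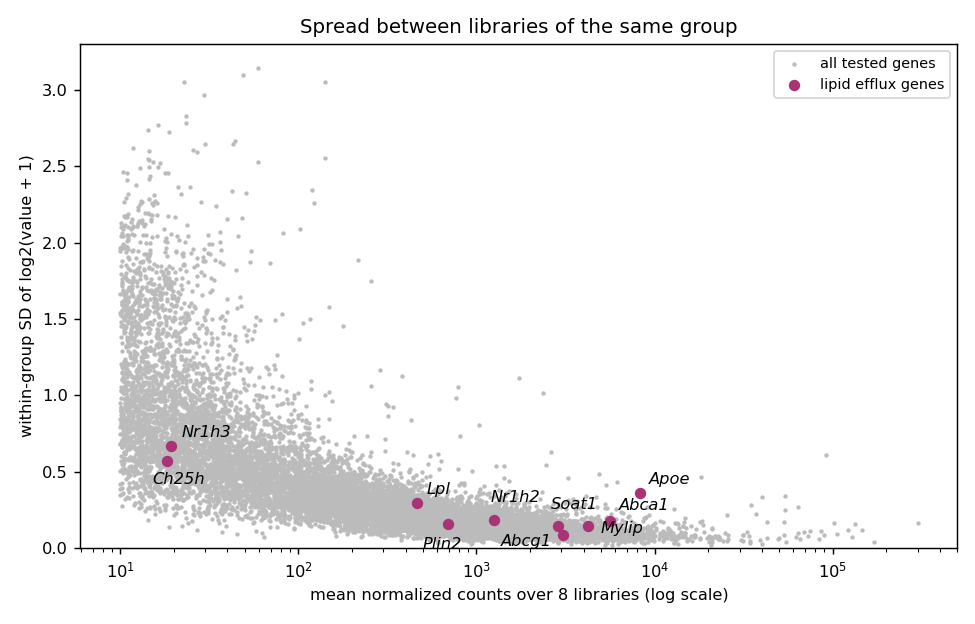
Within-group SD of log2(value + 1) against the mean normalized counts (log axis) for all tested genes (grey) and the 10 export genes (purple). Apoe, at an SD of 0.363, lies above most genes of its level, and Abcg1, at 0.0850, lies low among its own.

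Saline 2 had the highest value of 4 of the 10 genes, Apoe, Nr1h3, Soat1 and Ch25h. Markers of border macrophages, the macrophages of meninges and vessels that can enter a microglial sort and express Apoe, were at 0.0175% of all normalized counts in saline 2. In saline 1, 3 and 4 they were at 0.0096%, 0.0040% and 0.0035%, and in ethanol libraries at 0.0055 to 0.0089%. All 10 of 10 of these markers were highest in saline 2, 9 had a mean of at least 10 and none was at 0 throughout. Cd163 reached 297 normalized counts there and Mrc1 762. Between the groups the summed level had a two-sided exact permutation p of 0.686. Over all 8 libraries, Apoe and the summed markers had a Pearson r of 0.443 and a Spearman rho of 0.214 on the log2 scale. Saline 1, at 0.0096%, had the lowest Apoe of the saline libraries, 7353. Ethanol 3, with the highest Apoe after saline 2, 9845, had 0.0059%. The part of these cells in the Apoe value of saline 2 was not tested. In this bulk RNA, more cells of a type and more RNA per cell cannot be told apart. Astrocytes also make Apoe, and their 12 markers ran from 0.0456 to 0.0578% in saline and from 0.0424 to 0.0616% in ethanol (exact permutation p = 0.743), with saline 2 the lowest saline library. The astrocyte sum was led by Slc1a3, at a mean of 6117 normalized counts, with Aldoc next at 823. Markers of disease-associated microglia ran from 1.16 to 1.47% and from 1.18 to 1.40% (exact permutation p = 1.0). Ctsd, at a mean of 132844, and Trem2, at 23093, led that sum. It therefore says little about the scarcer genes of the list, such as Itgax at 173 and Spp1 at 24.4.

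**Figure D5:**
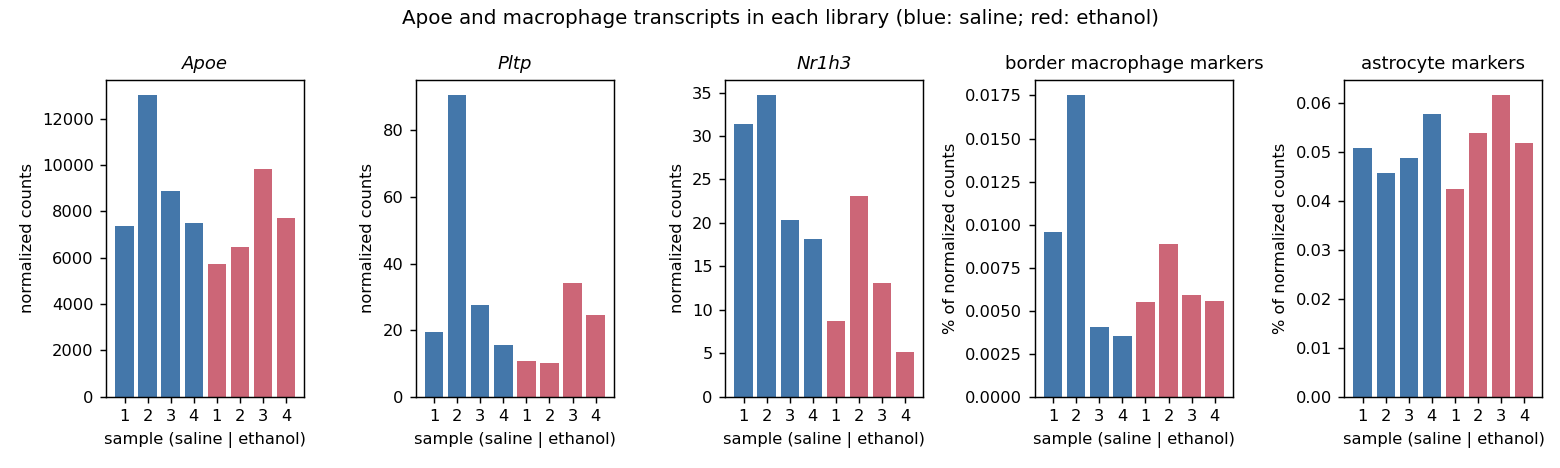
Bars from 0 for each library (saline 1 to 4 in blue, ethanol 1 to 4 in red) of normalized counts of Apoe, Pltp and Nr1h3 and of summed border macrophage and astrocyte markers as a percent of normalized counts. Saline 2 is the highest bar for Apoe, Pltp, Nr1h3 and the border macrophage markers, and not for astrocyte markers.

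Across the 8 libraries the export genes did not move as one block. Of 45 pairs, 26 had a positive and 19 a negative Pearson r, with a median of 0.09, and none passed after Benjamini-Hochberg adjustment over the 45. Abca1 and Mylip were the closest pair (r = 0.753, exact permutation p = 0.0147, adjusted p = 0.661; Spearman rho = 0.952, p = 0.00114, adjusted p = 0.0513). Without saline 4 and ethanol 4, the libraries farthest from the median of Abca1, r was 0.929. The pair with the next smallest p, Lpl and Mylip, had r = -0.65 (exact permutation p = 0.0780, adjusted p = 0.828; rho = -0.62, p = 0.115), and -0.03 without saline 4 and ethanol 1, the libraries farthest from the median of Lpl, so the relation did not hold without that pair. Without saline 4 and ethanol 4, the farthest from the median of Mylip, r was -0.71. Abca1 and Nr1h3 had r = 0.597 (exact permutation p = 0.116, adjusted p = 0.828; rho = 0.357, p = 0.389), and -0.22 without saline 4 and ethanol 4. Apoe had r = 0.373 with Lpl (p = 0.358 by exact permutation) and 0.10 with Abca1 (p = 0.803 by exact permutation).

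The genes whose levels followed Apoe most closely over the 8 libraries, out of 9917 genes with a mean of at least 50, were Wdtc1 (r = 0.934), App (0.925), Tmem237 (0.922), Chmp1b (0.919) and Caprin2 (0.916). App, the amyloid precursor gene, had 2214 normalized counts in saline 2, also its highest library. The mice carry a human APP transgene, and reads of it that match the mouse gene cannot be told apart. Lpl was followed most closely by Nr6a1os (0.939), Klhl3 (0.937), the chemokine gene Ccl3 (0.936) and the noncoding RNA gene Jpx (0.931). These are the highest of many correlations over 8 libraries and describe these libraries alone.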

How the data were processed

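Sorted microglia from 4 saline and 4 ethanol 5xFAD mouse libraries were profiled. Per the labels' protocols, 500 pg of RNA was amplified (SMARTer low-input chemistry, version 4) and 150 pg of cDNA entered NexteraXT libraries, read as pairs of 150 nt, without strand or molecular identifiers. The submitters' processing notes name STAR 2.7.9a, featureCounts 2.0.1 (Subread), DESeq2, Salmon 1.5.2, R 4.2.2, bcl2fastq 2.19.1 and the build GRCm39. What each did, and the annotation, is not given in the sources used here. The authors deposited one table of signal values, which its name calls DESeq2-normalized counts. Its values are whole multiples of one step per library (100% within 1e-06), so reads could be recovered and totals given. Overlapping genes, antisense genes and near-identical copies cannot be separated.

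The main test was limma 3.58.1 on log2(value + 1) (R 4.3.3, intensity trend, two-sided) over 14428 genes with a mean of at least 10, and p-values were adjusted over all of them. The pseudocount understates changes of low genes. Groups came from the sample titles. Single values and ratios were compared by exact permutation over 70 arrangements, which cannot go below 0.0286, and correlations over 40320 pairings. Levels per kilobase used exon lengths from GENCODE vM21 on GRCm38, matched by symbol. Promoter bases are from RefSeq GRCm38.p6, an older build than that of the table, so no other coordinates are given. Genes of like level are those with a mean within 2-fold.

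The 10 members and all gene lists were chosen with earlier results of these data known. From each list the genes past the threshold or, with none, those with the largest positive and negative statistic among genes with a mean of at least 50 were named, with 22 further genes whatever their result. For Apoe and Lpl the 5 most correlated genes were named. Some genes that this rule takes in are not reported here. Alternatives were other pseudocounts, filters, scalings and variance models, edgeR 4.0.16, DESeq2 1.42.0 and voom on recovered reads, the replicate block, the library name number as covariate, and leaving out each library. The limma test was tried on simulated data.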

Additional observations from a re-analysis of the deposited data

Results flagged for a closer look

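Among 116 groups of 4 libraries looked at, for the named genes, ratios and marker lists, 6 held a library whose gap to the nearest other exceeded 0.829 of the group's range. That is 5.17%, and chance gives about 1 in 20. Pltp, the phospholipid transfer protein gene, had 90.7 normalized counts in saline 2, while the other saline libraries had 15.4 to 27.5. Lrp1 was also highest in saline 2, at 11515, with the other saline libraries at 10613 to 10743. Border macrophage markers were at 0.00890% of normalized counts in ethanol 2 and at 0.00551 to 0.00589% in the other ethanol libraries. Insig2 was low in saline 4, at 1001, beside 1177 to 1202 in the other saline libraries. Oligodendrocyte markers were low in ethanol 1, at 0.0185%, beside 0.0206 to 0.0210% in the other ethanol libraries. Angptl4 had 2.01 normalized counts in ethanol 2 and was listed at 0 in the other ethanol libraries.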

How the results depend on the processing

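No gene was called in any setting, among the members or all genes. At an unadjusted p under 0.05 limma gave 524 genes, edgeR 495, DESeq2 558, voom 546 and the replicate block 645. The library name number as covariate gave 770, and leaving out each library in turn gave 427 to 676, all over 14428 genes. Saline and ethanol libraries of the same number correlated at 0.01 to 0.08, and those of different numbers at -0.10 to 0.14. Sample numbers were therefore not taken as pairs. With the replicate block the log2 ratio of Nr1h3 to Nr1h2 differed by -1.06 (exact sign-flip p = 0.125, the smallest that 4 pairs can give). That test could therefore not have passed 0.05. Apoe, Lpl, Nr1h3, Soat1 and Ch25h stayed negative in every setting that gave a value (Nr1h3 and Ch25h gave none at a mean of at least 50), with folds of 0.737 to 0.925 for Apoe and 0.359 to 0.565 for Nr1h3. Small changes turned sign without passing any threshold. With the library name number as covariate, Mylip had -0.016 and Npc1 -0.028, and Plin2 had 0.0084 with quantile normalization, 0.00076 with array weights and 0.0019 with voom. Leaving out one library gave log2 fold changes of -0.11 to 0.063 for Abca1, -0.047 to 0.020 for Abcg1, -0.16 to 0.029 for Nr1h2, -0.037 to 0.079 for Mylip, -0.072 to 0.095 for Plin2, -0.021 to 0.10 for Abca7, -0.079 to 0.27 for Insig1, -0.052 to 0.017 for Lipa, -0.072 to 0.0077 for Lrp1, -0.0091 to 0.086 for Npc1, -0.12 to 0.052 for Scarb1 and -0.0074 to 0.20 for Srebf2. The log2 ratio differences ran from -1.40 to -0.71 for Nr1h3 to Nr1h2, from -0.11 to 0.10 for Abca1 to Abcg1 and from -0.15 to 0.018 for Soat1 to Abca1. Without ethanol 2 the unadjusted exact permutation p for Nr1h3 to Nr1h2 was 0.0286, the smallest that the remaining libraries can give. Correlated pairs past the adjusted threshold numbered 0 to 1, the 1 being Abca1 and Mylip without saline 4 (r = 0.791) or without ethanol 4 (r = 0.968), each with an adjusted exact permutation p of 0.0357, and r of Abca1 and Nr1h3 ran from -0.078 to 0.87. The causes were not tested. Depth limits Nr1h3 and Ch25h, with 5 to 36 reads a library. The alternatives for the spread of the members, and for the genes most like Apoe and Lpl, were chosen after seeing the data.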
